A study of Rattus norvegicus with 6 samples.

Results

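Whole liver of rats (Rattus norvegicus) 1 day after treated ischemia reperfusion (IR) was compared with healthy liver, using 2 of the 6 libraries of the series, each made from the pooled RNA of 3 animals. The series asked whether blocking vasoconstriction or inflammation improves the outcome of IR, here made by clamping the portal vein for a time and then letting blood return. The liver control pool came from healthy, untreated animals, and no sham operation is named in the labels. The liver treated IR pool came from animals that received etanercept (9 mg/kg) from 18 to 16 h ahead of the injury, together with a nitroglycerin infusion of 6 µg/kg/min that ran before and through it. The liver IR pool had the same injury without drugs. The matching 3 pools of freshly isolated hepatocytes (hepatocyte control, hepatocyte IR and hepatocyte treated IR) came from additional animals. The labels used here give no strain, sex or age for any pool.

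Reperfusion injury begins with loss of oxygen and energy in hepatocytes and sinusoidal endothelium, and continues after flow returns, when resident macrophages release tumor necrosis factor and leukocytes enter the tissue. Etanercept is a receptor fusion protein that captures tumor necrosis factor, and nitroglycerin is a donor of nitric oxide, which relaxes vessels. Whole liver RNA holds transcripts of hepatocytes together with those of endothelial, stellate, bile duct and immune cells, whereas the isolated hepatocytes are depleted of the other cells.

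Liver control had 1945331 reads counted in genes and liver treated IR had 6059666. Of 15086 gene IDs with a read in either library, 7781 had at least 50 reads over both and are described here. They held 98.9% of the control reads and 98.7% of the treated reads. Levels are reads per 1000000, with library sizes scaled by TMM, a trimmed mean that sets the bulk of genes equal between libraries (scaled CPM). A count of 0 allows a level of up to 1.31 scaled CPM in control and 0.399 in treated IR (3 reads). Genes were called apart by size alone, where the ratio reached 2-fold and its 95% Clopper-Pearson interval left out equality. That interval and all others here cover counting error only. With 1 library a side there is no replicate check and no p-value, so higher and lower describe these libraries. Genes carry only Ensembl IDs, of which 0 of 26689 could be paired with a symbol. Genes are therefore described by groups, no marker gene of liver or hepatocytes could be looked up, and whether an ID shares reads with a near-identical copy could not be judged.

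The library labelled hepatocyte IR stood apart from the other hepatocyte libraries on most of the leading genes that set liver control apart, as the values below show. Over all genes called in liver this held for a part. Of 186 genes higher in treated liver and measured in hepatocytes, 51 were lower in hepatocyte IR than in hepatocyte control and 21 were higher. Of 144 genes lower in treated liver, 40 were higher in hepatocyte IR and 5 were lower. Those counts were 27.4% and 11.3% of the 186, and 27.8% and 3.47% of the 144. Of all 6882 genes measured in both pairs, 6.32% were lower in hepatocyte IR and 8.94% were higher. The labels were kept as given, and since 1 healthy liver library was analysed here, no result below can be given without it. Whether either label is exchanged, or whether the pools differ in sex, strain or another trait the labels leave out, was not tested. An exchange of the liver control label, or such a trait in a liver pool, would change what every difference from liver control below stands for. An exchange among the hepatocyte labels alone would leave the liver values as given and change what the hepatocyte readings stand for.

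Treated IR liver differed from healthy liver in 534 of 7781 genes, with more genes higher than lower. Of these, 379 were higher in the treated library, 4.87% of the genes described, and 155 were lower, 1.99%. The higher genes had a median ratio of 2.68-fold (interquartile range 2.24 to 3.77, with counts under 3 set to 3) and the lower genes were a median of 2.36-fold lower (2.13 to 2.74). Under a 4-fold rule 84 genes were higher (1.08%) and 13 lower (0.167%), and 11 were at least 16-fold higher and 2 at least 16-fold lower. Most genes lay close together: 7222, or 92.8%, were within 2-fold, and a further 25 were beyond 2-fold with an interval that included equality.

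**Figure D1:**
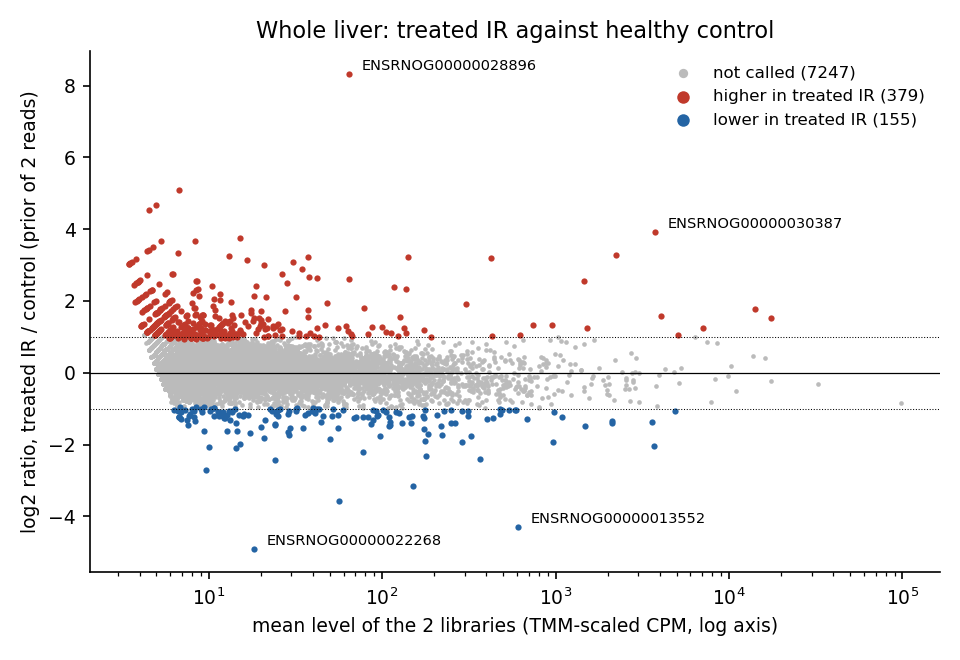
Log2 ratio of liver treated IR to liver control (prior of 2 reads) against the mean level of both libraries in scaled CPM on a log axis, 1 point a gene for 7781 genes; dotted lines mark 2-fold. The 379 higher genes crowd at low levels, while the 155 lower genes spread over the whole range.

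The higher genes were mostly scarce transcripts and the lower ones more abundant. The median higher gene had 10 reads in control and 93 in treated IR, and 288 of the 379 had under 200 reads over both libraries. Among the 155 lower genes 64 had so few. In genes with 1000 or more reads the balance was the other way, with 29 of 859 genes higher (3.38%) and 42 lower (4.89%). The treated library was sequenced 3.11 times as deeply as the control, and a scarce gene reaches 50 reads more easily when it is higher in the deeper library. With the treated library thinned to the 1945331 reads of the control, 164 genes were higher and 136 lower, or 54.7% of genes apart being higher in place of 71.0%. In genes with at least 200 reads 91 were higher and 91 lower. The excess of higher genes was thus smaller at equal depth and not seen at 200 or more reads, while genes were called in both directions under each of these settings.

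The leading genes show what the difference looks like in single transcripts. They were ranked by how far from equality the near bound of their interval lay, and the first 2 in each direction are named. ENSRNOG00000028896 had 0 reads in liver control, against 810 and 968 in the untreated and treated IR livers. Its reads in hepatocytes were 440 in control and 923 in treated IR, with 1 in hepatocyte IR. Liver treated IR was thus at 129 scaled CPM (95% exact Poisson interval 121 to 137), at least 98.7-fold higher than liver control when 3 reads are taken as the limit for 0. The lower Clopper-Pearson bound of that ratio, by which the gene was ranked, was 80.1. Liver IR stood at 120 scaled CPM, hepatocyte control at 136 and hepatocyte treated IR at 427, against 0.193 in hepatocyte IR. Both low libraries were liver control and hepatocyte IR, and hepatocyte control was 706-fold above hepatocyte IR (95% Clopper-Pearson interval 126 to 27960).

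ENSRNOG00000030387, a far more strongly counted gene, repeated this division. It stood at 464 scaled CPM in liver control, against 9359 and 7045 in the untreated and treated IR livers, and was 15.2-fold higher in treated IR than in control (14.3 to 16.1). Hepatocyte control and treated IR held 9982 and 14815 scaled CPM, against 599 in hepatocyte IR. Hepatocyte control was 16.7-fold above hepatocyte IR (16.1 to 17.3). The treated and untreated IR livers were much closer to each other, at a ratio of 0.753 (0.744 to 0.761), than either was to liver control.

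Of the genes lower in treated liver, ENSRNOG00000022268 had 82 reads in liver control, against 2 and 6 in the untreated and treated IR livers. It was 44.7-fold lower in treated IR than in control (19.7 to 125). Hepatocyte IR had 38 reads, with 4 in hepatocyte control and 0 in hepatocyte treated IR, so hepatocyte IR was again the library on the side of liver control. ENSRNOG00000013552 stood at 1162 scaled CPM in liver control, against 64.9 and 59.0 in the untreated and treated IR livers, 19.7-fold lower in treated IR than in control (17.8 to 21.8). Hepatocyte IR stood at 933 scaled CPM, with 64.7 in hepatocyte control and 107 in hepatocyte treated IR. The levels of liver control and hepatocyte IR lay together, and those of the other 4 libraries lay together well below them.

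**Figure D2:**
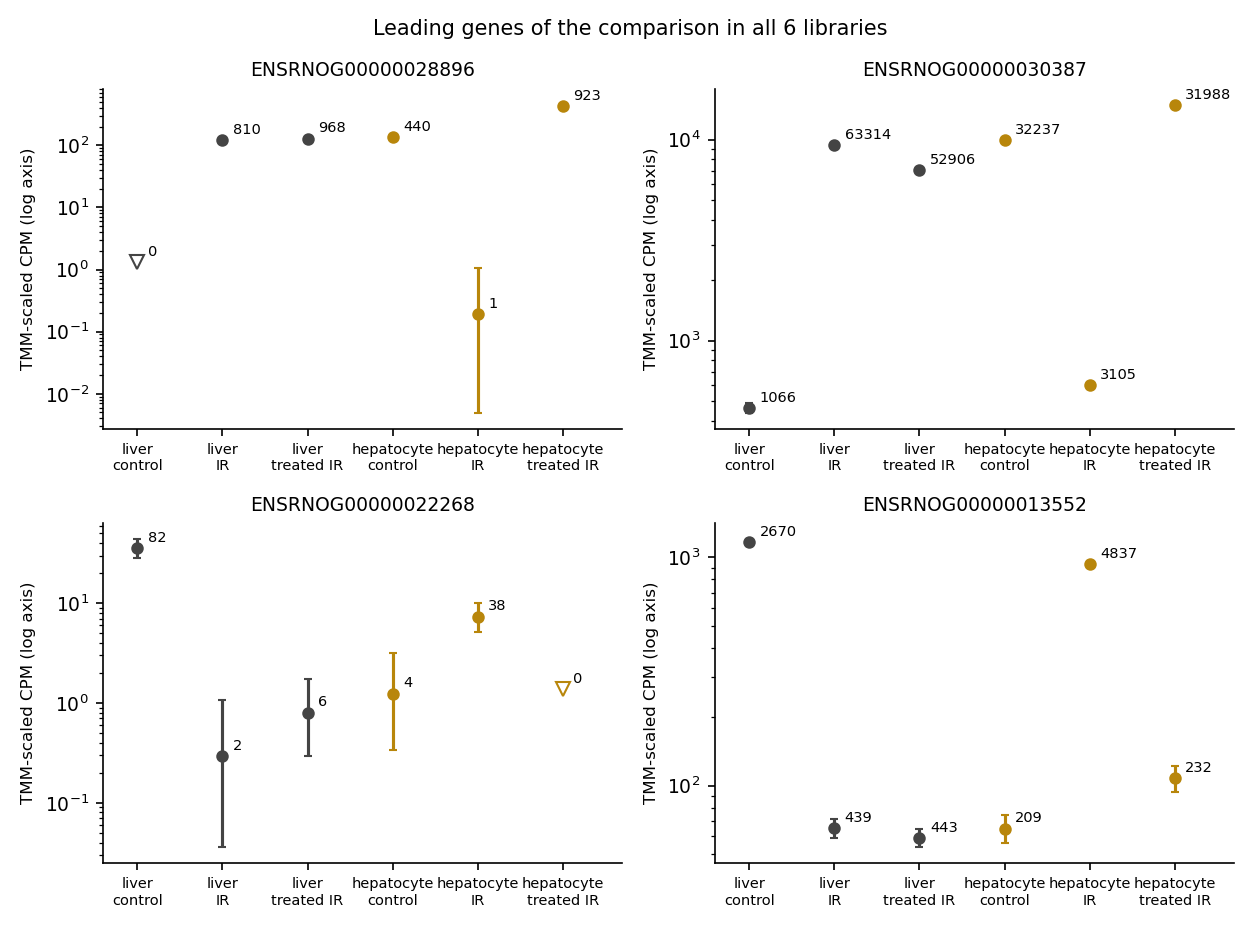
Level of the 4 named genes in each of the 6 libraries (scaled CPM, log axis), with 95% exact Poisson intervals and the read count beside each point; open triangles mark 0 reads, drawn at the level of 3 reads. In each gene liver control and hepatocyte IR sit on one side of the other 4 libraries.

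This division held for more of the leading genes. Of the 15 leading higher genes, 10 had at least 50 reads over hepatocyte control and hepatocyte IR. By a difference of any size, 9 of the 10 were lower in hepatocyte IR than in both other hepatocyte libraries. Of the 15 leading lower genes 14 had such reads, and 14 of 14 were higher in hepatocyte IR than in both others, again by any size. The share of all genes that meets this looser rule was not computed. By the rule of size against hepatocyte control, 8 of the 10 and 7 of the 14 were called so, and 0 were called the opposite way. Over all genes measured in both pairs, 6.32% were called lower and 8.94% higher in hepatocyte IR.

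All genes called apart in liver were then read in the hepatocyte libraries, which share no library and no animals with the liver pools. Over 7050 genes with at least 50 reads in that pair, 6.26% were lower in hepatocyte IR than in hepatocyte control and 9.59% were higher. Of the 379 genes higher in treated liver, 186 were measured there, and 51 of these (27.4%) were lower in hepatocyte IR, against 21 (11.3%) that were higher. Those 51 made up 11.7% of the 435 genes lower in hepatocyte IR that were also measured in liver. Of the 155 genes lower in treated liver, 144 were measured, and 40 (27.8%) were higher in hepatocyte IR, against 5 (3.47%) that were lower. Those 40 made up 6.50% of the 615 genes higher in hepatocyte IR.

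The same reading against hepatocyte treated IR gave like counts. Over 6749 genes, 11.5% were lower and 13.3% higher in hepatocyte IR than in hepatocyte treated IR. Of the higher liver genes, 59 of 173 (34.1%) were lower in hepatocyte IR and 26 higher. Of the lower liver genes, 49 of 143 (34.3%) were higher in hepatocyte IR and 8 (5.59%) lower. Both readings use the same hepatocyte IR library and are therefore not independent of each other.

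The division was seen in genes with 200 or more reads in the liver pair and was clearest, for the higher genes, in those with 1000 or more. Among 855 genes with 1000 or more reads in the liver pair, 11.1% were lower in hepatocyte IR than in hepatocyte control and 6.32% were higher. Of the 28 such genes that were higher in treated liver, 21 (75%) were lower in hepatocyte IR and 0 were higher. Of the 42 that were lower in treated liver, 13 (31.0%) were higher in hepatocyte IR and 0 were lower.

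With 200 to under 1000 reads, 15 of 41 higher genes (36.6%) were lower in hepatocyte IR, against 6.17% of all genes of that abundance, and 2 were higher. Of the lower genes 15 of 49 (30.6%) were higher in hepatocyte IR, against 5.90% of all, and 1 was lower. With under 200 reads the higher genes went both ways: 15 of 117 (12.8%) were lower in hepatocyte IR, against 5.23% of all, and 19 (16.2%) were higher, against 404 of all 3367. Among the scarce lower genes 12 of 53 (22.6%) were higher in hepatocyte IR, against the same 404 of all 3367. A further 4 (7.55%) were lower, against 5.23% of all. Both shares lay above those of all genes, on few genes, so the division was not clear under 200 reads in either list.

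**Figure D3:**
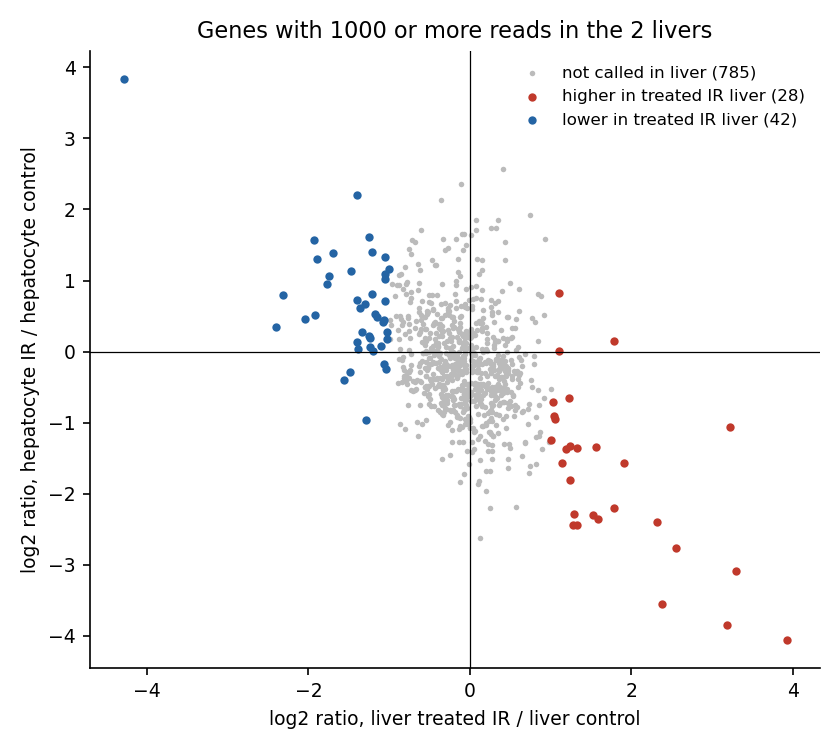
Log2 ratio of hepatocyte IR to hepatocyte control against that of liver treated IR to liver control (prior of 2 reads), for 855 genes with 1000 or more reads over both livers, 1 point a gene. Of the 28 genes higher in treated liver 21 were called lower in hepatocyte IR, and of the 42 genes lower in treated liver 13 were called higher.

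The share of reads shows the size of the abundant part. The 379 higher genes took 3.77% of reads in liver control, with a Wilson interval at 95% from 3.75 to 3.80, and 12.4% in liver treated IR (12.4 to 12.4). They took 13.1% in liver IR, 13.8% in hepatocyte control and 15.3% in hepatocyte treated IR. In hepatocyte IR they took 3.67% (3.65 to 3.69), close to the share in liver control. Most of these reads lay in the 29 higher genes with 1000 or more reads over the liver pair. Those 29 took 3.52% in liver control, 11.7% in liver treated IR and 3.33% in hepatocyte IR. The 379 genes were chosen on the liver control and liver treated IR counts, so the gap between those shares follows in part from the choice. The 51 genes that were also lower in hepatocyte IR took 2.95% of reads in liver control and 10.4% in liver treated IR, so they held most of the reads behind the higher share. The 155 lower genes took 6.08% of reads in liver control and 2.42% in liver treated IR. Their share was 2.29% in liver IR, 3.14% in hepatocyte control, 5.07% in hepatocyte IR and 2.94% in hepatocyte treated IR. Without the 51 and the 40 genes shared with hepatocyte IR, a setting added after the data were seen, 328 genes were higher and 115 lower in treated liver.

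**Figure D4:**
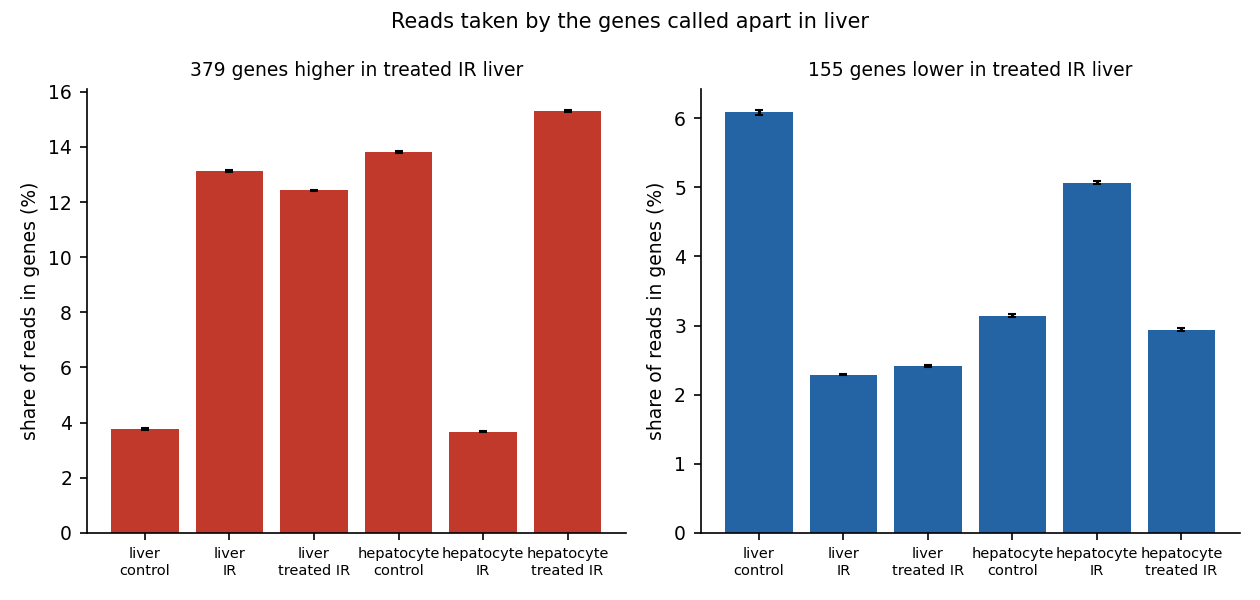
Share of all reads in genes taken by the 379 genes higher and the 155 genes lower in liver treated IR than in liver control, in each of the 6 libraries, with 95% Wilson intervals for counting error. The 379 genes took 3.77% in liver control and 3.67% in hepatocyte IR, against 12.4% to 15.3% in the other 4 libraries. The 29 of them with 1000 or more reads took 3.52% and 3.33%, against 11.7% to 14.9%. The other 350 took 0.251% and 0.343%, against 0.379% to 0.770%.

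A small part of the genes apart in liver was called in the same direction in hepatocytes of treated animals against hepatocyte control. Over 5723 genes 3.76% were higher and 3.72% lower in hepatocyte treated IR than in hepatocyte control. Of the higher liver genes measured there, 15 of 135 (11.1%) were also higher in hepatocytes and 9 (6.67%) were lower. Of the lower liver genes, 9 of 118 (7.63%) were also lower and 5 (4.24%) were higher. With 1000 or more reads in the liver pair, 5 of 28 higher genes (17.9%) were also higher, against 3.75% of all, and 1 was lower. Of the 42 lower genes of that abundance 0 were also lower, against 1.41% of all, and 1 was higher. The 15 and 9 genes with the same direction made up 7.25% and 4.25% of the hepatocyte genes called in those directions and measured in liver.

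Genes were also sorted by their level in isolated hepatocytes, and here the outcome turned on which liver library served as the reference. Against liver IR, 184 genes were at least 4-fold lower in both hepatocyte control and hepatocyte IR, and 57 of these (31.0%) were higher in treated liver than in healthy liver and 1 lower. Against liver control, a reference added after the data were seen, 31 genes were so much lower, with 3 (9.68%) higher in treated liver and 2 (6.45%) lower. Genes at least 2-fold higher in both hepatocyte libraries changed direction. Against liver IR there were 37, of which 6 were higher and 18 lower in treated liver, with a median log2 ratio of -0.66. Against liver control there were 58, of which 21 were higher and 1 lower, with a median of 0.67. Each reference favours genes that are high in it, and the shallower control library lets fewer genes reach 50 reads. No difference between treated and healthy liver is therefore drawn from hepatocyte level. In bulk tissue, more cells of a type and more RNA per cell cannot be told apart.

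The 57 genes picked against liver IR were scarce, with a median of 6.53 scaled CPM in liver control, against 11.2 and 15.2 in the untreated and treated IR livers. Their joint share of reads was 0.0566% in healthy liver (0.0534 to 0.0601 by Wilson's method) and 0.172% in treated IR liver (0.169 to 0.175). They thus held a small part of the reads of the 379 higher genes.

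Beside these 57 genes and the 51 called lower in hepatocyte IR, 271 of the higher genes remained. Of these, 137 had under 50 reads over hepatocyte control and hepatocyte IR and could not be read there, and 134 were read and not called lower in hepatocyte IR. Their median level was 3.92 scaled CPM in liver control, against 7.24 and 10.5 in the untreated and treated IR livers.

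The untreated IR liver gives the level reached without the drugs. Its comparisons share the control or the treated library with the one above, so values are set side by side only. Liver IR differed from liver control in 259 higher genes (3.48% of 7440) and 112 lower genes (1.51%). Liver treated IR differed from liver IR in 130 higher genes (1.5% of 8676) and 52 lower genes (0.599%). At one depth of 1945331 reads, 300 of 5498 genes (5.46%) were apart between treated IR and control, 228 of 5075 (4.49%) between IR and control, and 107 of 5249 (2.04%) between treated IR and IR.

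In the genes apart from healthy liver, the untreated IR liver lay on the same side as the treated one by their medians. The 29 higher genes with 1000 or more reads had medians of 127 scaled CPM in healthy liver, 574 after untreated and 480 after treated injury. The other 350 higher genes had medians of 4.35, 8.43 and 11.3 in the same order. Among the lower genes, the 42 with 1000 or more reads had medians of 480, 218 and 174, and the other 113 had 32.6, 14.5 and 10.3. The median ratio of treated to untreated IR liver was 0.946 in the 29 and 1.36 in the 350 higher genes, and 0.821 in the 42 and 0.779 in the 113 lower genes. These genes were chosen by the control and treated libraries, and counting error in scarce genes chosen so carries the treated library away from liver IR. Counting error in the shared control library carries both IR livers to the same side. The place of liver IR relative to the other livers was therefore not tested.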

How the data were processed

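The authors deposited whole-number read counts by Ensembl ID, 1 table for each of 6 pooled libraries. The mRNA was selected from total RNA and sequenced on an Ion Torrent Proton, per the labels and the series' design. The submitters' processing notes list TopHat2 2.0.13 and HTSeq 0.6.1. The strand setting, annotation release and genome build were not given in the sources used here. Overlapping and antisense genes therefore cannot be told apart. Summary lines were left out of library sizes: reads outside genes were 7.66% and ambiguous reads 0.369% of uniquely aligned reads in liver control, and 7.52% and 0.487% in liver treated IR.

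Groups came from sample titles. TMM factors (edgeR 4.0.16, R 4.3.3) were taken over all 6 libraries from genes passing filterByExpr at a minimum count of 10, and were 1.18 in liver control and 1.24 in liver treated IR. Ratios and intervals were computed with SciPy 1.17.1, and log2 ratios used a prior of 2 reads. Calls were tried on simulated counts of known fold that held counting error only. That trial could not speak to spread between pools or to error in scaling. Alternatives were DESeq2 1.42.0 size factors, library totals, TMM over the 2 libraries, totals without the 20 most abundant genes, other read filters, thinning and stricter size rules.

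The comparison and its lists were chosen with earlier results of these data known. The rule for named genes takes, where IDs have no symbol, at most 2 higher and 2 lower IDs whose interval bound lies farthest from equality. The 33 gene lists and the cell type markers, given by symbol, could not be run. The sorting of genes by their hepatocyte level, against either liver library, and the reading in hepatocyte IR were added after the files were seen.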

Additional observations from a re-analysis of the deposited data

Results flagged for a closer look

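For treated IR against control, 14 genes were called apart in opposite directions in liver and in isolated hepatocytes, out of 5701 measured in both. Treated IR exceeded control in liver but was below it in hepatocytes for 9, and 5 were the reverse, beside 24 called in the same direction. The 9 were 6.67% of the 135 higher liver genes measured, against 3.72% of all genes called lower in hepatocytes. The 5 were 4.24% of the 118 lower liver genes, against 3.63% of all called higher, so these counts lay not far from the shares over all genes. That difference was not tested, since each side is 1 library.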

How the results depend on the processing

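Counts are limited by the depth of liver control and by the single healthy liver pool. Scaling by DESeq2 size factors, library totals, TMM over the 2 libraries or totals without the 20 most abundant genes shifted all log2 ratios by -0.04 to 0.08 and kept the 6 summary values here within 1.5 times. The 4 named genes kept their direction, with ratios inside their counting intervals, under these scalings, thinning and a prior of 2 reads (24 values). No gene filter gave 579 genes higher and 294 lower, 149 higher genes among those low in hepatocytes, and 63 lower genes shared with hepatocyte IR. The filterByExpr set gave 237 lower, 129 and 62 in place of 155, 57 and 40. A minimum of 200 reads gave 91 higher and 91 lower (50% higher), with 8 genes low in hepatocytes and 30 shared with hepatocyte IR among the higher, where the hepatocyte pairs also had to reach 200 reads. Thinning gave 164 higher (54.7%), 29 of them low in hepatocytes. The 4-fold rule gave 84 higher and 13 lower (86.6%), with 10 low in hepatocytes, 15 shared among the higher and 2 among the lower. With the whole interval beyond 2-fold, 85 were higher and 66 lower (56.3%), and those counts were 11, 26 and 19; both rules were applied in the hepatocyte pair too. Sorting by hepatocyte IR alone or hepatocyte control alone, both chosen after seeing the data, gave 81 and 62 in place of 57, and sorting against liver control, likewise added, gave 3. The filters, thinning and stricter rules differ by construction in the genes or reads they admit. No paired analysis was possible because each group holds 1 library.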

Other observations

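The 20 most abundant genes of the liver pair followed the same division in part. Of these, 6 were called higher in treated liver and 0 lower, and 14 were within 2-fold. The third most abundant took 1.06% of reads in liver control, against 4.47% and 3.20% in the untreated and treated IR livers. Its share was 0.925% in hepatocyte IR, against 4.38% and 4.50% in the other hepatocyte libraries. The most abundant gene, not called by the rule of size, stood in treated liver at 0.561 of its control level (95% Clopper-Pearson counting interval 0.559 to 0.564).

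Alignments that were not unique, used in no comparison, made up 41.1% of alignments in liver treated IR, 46.3% in liver control and 60.1% in liver IR.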
